A study of Mus musculus with 6 samples.

Results

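The cytosolic ribosomal proteins are the protein subunits of the ribosome that translates nuclear messages. On these arrays they were taken as every probe set whose single annotated gene symbol starts with Rpl or Rps followed by a digit, p or a, leaving out the 3 probe sets of the Rps6k genes, which encode S6 kinases and not ribosomal subunits. The rule found 35 of the 8251 genes named by a single-symbol probe set, read by 49 of the 12422 probe sets. The large subunit had 22 probe sets of 17 genes and the small subunit had 27 probe sets of 18 genes. A further 39 probe sets carried a ribosomal protein symbol together with other symbols, and 33 ribosomal protein symbols, among them Rpl3, Rplp1 and Rps6, were present on such probe sets alone. No single-symbol probe set named Rplp2.

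The samples were mIMCD3 cells, an immortalised mouse line of the inner medullary collecting duct, exposed for 1 h to vehicle or to aldosterone, the adrenal steroid that acts on sodium transport in the distal nephron. The experiment was performed 3 times, each time with 1 vehicle and 1 aldosterone sample, which gave 3 arrays per group. The labels state neither the hormone dose nor what the vehicle was. All samples come from this single cell line, with no genetic change named in the labels. Where nothing is said about separate cultures, p-values measure only the spread between these samples, which may be technical.

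A ribosome carries 1 copy of nearly every ribosomal protein, so the subunits are needed in matched amounts, and growing cells hold their messages among the most abundant ones. In mammals this balance is kept largely after transcription: most of these messages begin with a 5′ terminal oligopyrimidine (TOP) tract, a run of C and T at the cap that lets mTOR signalling, through LARP1 and the 4E-BP proteins, set how well they are translated. An array measures the amount of the message and not its translation.

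Promoter sequence was read for the members from RefSeq on build GRCm38.p6, where 28 of the 35 genes had an entry. A run of at least 8 C or T letters on the gene's own strand, anywhere from 20 bases before to 50 bases after an annotated start, occurred in 18 of 28 member genes (64.3%) and in 28.5% of the 27025 genes with an entry. The motif CCGGAAG, the core bound by ETS-family factors, was searched on both strands from 250 bases before to 50 bases after a start. It occurred in 12 of 28 member genes (42.9%) and in 9.93% of all genes. Genes with several annotated starts were counted once if any of them held the letters, and a match describes letters and not a bound site.

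The windows below, 5′ to 3′ on the gene's strand, show the pyrimidine run in capitals for 6 genes with bright probe sets on these arrays, including Rps24, Rpl41 and Rpl10a, which name 3 of the 4 probe sets called between replications. Each window crosses or follows the annotated start of its gene, and the run lies within the search window. Its first base lay at -14, -3 and -2 from that start in Rpl7a, Rps10 and Rps18. In Rps24, Rpl41 and Rpl10a it lay at 38, 40 and 17, away from the annotated start. Whether any of these runs is a TOP tract was not tested. Other bright members had shorter runs, with longest runs of 5, 6 and 7 letters in Rps3, Rps3a1 and Rplp0.
Rpl7a (chr2:26910789-26910818, plus strand): acaaTTCCCTCTTCTTTCTTTCTCCagcag
Rps10 (chr17:27635226-27635255, minus strand): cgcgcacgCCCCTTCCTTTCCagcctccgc
Rps18 (chr17:33955647-33955676, minus strand): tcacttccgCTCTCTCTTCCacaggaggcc
Rps24 (chr14:24490698-24490727, plus strand): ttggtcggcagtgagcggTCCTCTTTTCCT
Rpl41 (chr10:128549119-128549148, minus strand): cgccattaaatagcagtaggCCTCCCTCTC
Rpl10a (chr17:28328572-28328601, plus strand): aagcgctctgCCTTCTTTCCggtttccgcg
The run has 21 letters in Rpl7a, 13 in Rps10, 11 in Rps18 and 10 in Rpl10a. In Rps24 and Rpl41 it reaches the last base of the search window, so the 12 and 10 letters found there are minimum lengths.

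The ETS core is shown in capitals for 3 genes with bright probe sets, to set its place beside the pyrimidine run. In Rpl41 and Rps10 the letters lie before the annotated start and read on the gene's strand, whereas in Rps7 the capitals are the reverse complement, CTTCCGG.
Rpl41 (chr10:128549206-128549235, minus strand): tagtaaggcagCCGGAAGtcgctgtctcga
Rps10 (chr17:27635255-27635284, minus strand): agccgcgcagcCCGGAAGagacgctgcgcc
Rps7 (chr12:28635949-28635978, minus strand): tttcagaagagCTTCCGGtttccacccacc

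Values below are intensities after each array was scaled to a common trimmed mean, and differences are on the log2(intensity + 53.0) scale, which understates the change of dim probe sets. On 5 arrays the deposited trimmed means were 2488 to 2493, and on the aldosterone array of replication 3 the mean was 86.5, so that array was multiplied by 24.2 and the others by 0.838 to 0.840. Depth has no meaning on an array, and the number of arrays limits the precision. Of 22 collecting duct and epithelial markers, 18 were on the array and 12 genes were bright enough to test, keratins 7, 8, 18 and 19, Cdh1 and Epcam among them. Aqp2, Avpr2 and Hsd11b2, defining genes of the vasopressin- and aldosterone-responsive duct, were on the array and too dim to test. The summed epithelial marker level was 82027 to 107607 on the vehicle arrays and 77694 to 101887 on the aldosterone arrays. Of the marker genes on the array, those tested were 3 of 9 for proximal tubule, 2 of 3 for intercalated cells and 4 of 10 for fibroblasts. For endothelium it was 1 of 8 and for leukocytes 3 of 8.

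The ribosomal protein probe sets ranged from very bright to very dim. The mean rank within an array was at or above the 95th percentile for 21 of 49 probe sets, covering 19 genes. This bound was chosen after the values were seen; the member just inside it was Rps19 at percentile 95.8 and the member just outside was Rpl13a at 91.5. A filter on the mean log2 value, at 8.87, passed 31 member probe sets of 26 genes to the tests, 15 of the large and 16 of the small subunit. Of these 31, 10 lay outside the 21 brightest, at mean percentiles of 39.7 to 91.5. The remaining 18 of the 49 probe sets were too dim. In all, 9 genes, among them Rpl32, Rpl39, Rps14, Rps15 and Rps20, had no tested probe set. Just below the filter were Rps4x (161654_r_at) at a mean log2 value of 8.79 and Rps24 (93121_at) at 8.51, and just above it Rps4l (98148_at) at 8.92 and Rps28 (98086_r_at) at 9.28. Probe sets differ in their probes, so their levels are not an order of message abundance.

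The brightest member was Rpl41, which encodes the shortest protein of the large subunit. Its probe set (100213_f_at) read 169661, 131650 and 141189 on the vehicle arrays of replications 1 to 3 and 178152, 137718 and 145799 on the aldosterone arrays, and it was the brightest probe set on every array. Rps24 (97696_r_at), a small-subunit protein affected in Diamond-Blackfan anaemia, read 111117, 80786 and 97703 with vehicle and 104578, 81277 and 92984 after aldosterone. That probe set shares a source sequence record with the bright Rpl7 probe set (97695_s_at), so which gene it measures cannot be told here. Rplp0 (101213_at), the base of the stalk that recruits elongation factors, read 104296, 86014 and 93610 with vehicle and 101070, 88001 and 94469 after aldosterone. In these 3 the array of replication 1 was the highest of its group and that of replication 2 the lowest, and the groups overlapped.

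Rpsa (97750_at), a small-subunit protein that is also known as the laminin receptor, was less bright, at 14168, 15774 and 12850 with vehicle and 14602, 15063 and 13260 after aldosterone. The dimmest members were Rps4x (162229_at) at a mean of 61.9 over the 6 arrays, Rpl39l (104544_at) at 84.7 and Rpl7 (97697_at) at 89.9. Over the 18 dim probe sets the means were 61.9 to 472, at mean percentiles of 11.7 to 38.2.

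**Figure D1:**
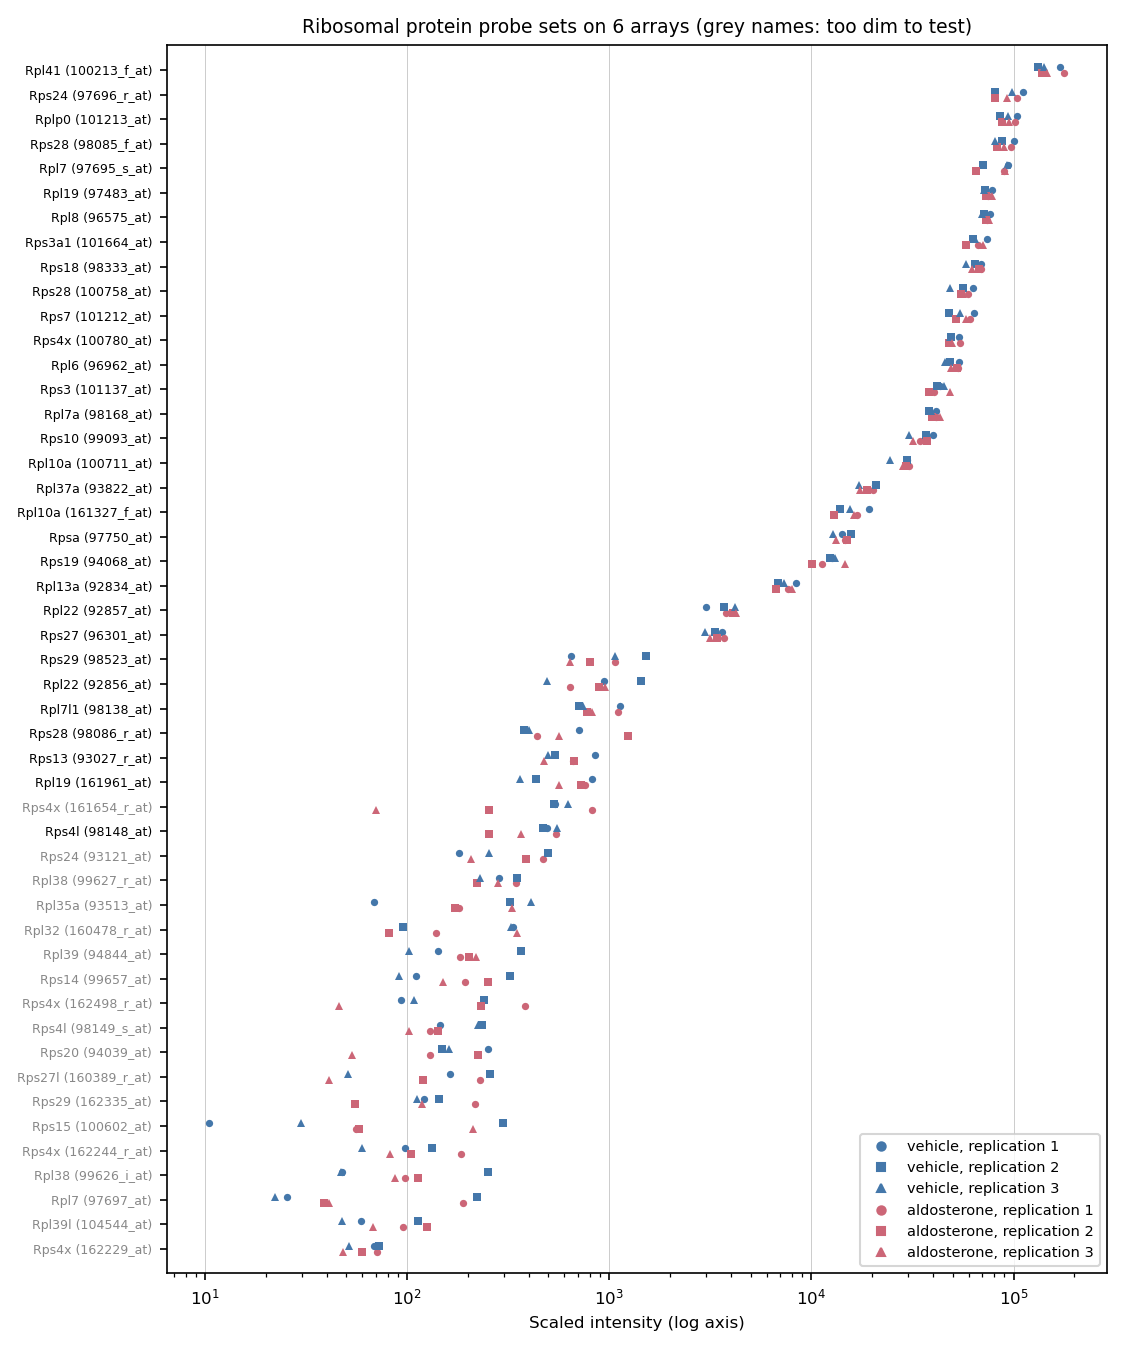
Scaled intensity (log axis) of all 49 probe sets, 1 point per array, with vehicle in blue, aldosterone in red and the replication given by the marker shape; grey names mark the 18 probe sets too dim to test. The 21 brightest lie at means of 12342 to 150695 with points close together, and the points spread with falling intensity.

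The spread over arrays followed the brightness of the probe set. Among the 21 brightest members the highest array exceeded the lowest by 1.09-fold to 1.49-fold, with a median of 1.25-fold. Among the other 10 tested members the range was 1.25-fold to 3.25-fold (median 1.97), and among the 18 dim ones 1.5-fold to 28.5-fold (median 4.12). The median standard deviation within a group, on the log2 scale, was 0.133, 0.336 and 0.575 in these 3 sets. Rps15 (100602_at), a small-subunit protein, showed the widest range, with 10.5, 299 and 29.7 on the vehicle arrays and 55.5, 57.7 and 213 on the aldosterone arrays.

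No ribosomal protein probe set passed the test for a change after 1 h of aldosterone. With limma's moderated test and Benjamini-Hochberg adjustment over all 7453 tested probe sets, 0 of 31 members were called, and 0 of 7453 probe sets in all (0%). The smallest adjusted p among members was 0.9995. At an unadjusted p under 0.05 the count was 0 of 31 members, against 72 of 7453 probe sets (0.966%). With the replication number as a block, which pairs the arrays of each experiment, it was again 0 of 31, against 250 probe sets (3.35%), and the smallest member p was 0.186. With 3 arrays against 3, an exact permutation test of a single value cannot go below p = 0.1.

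The sizes of the differences were small where the probe sets were bright. By sign, 18 members were higher and 13 lower with aldosterone, and the median difference was 0.0074 against -0.00029 over all tested probe sets. The large subunit had 10 higher and 5 lower with a median of 0.03, and the small subunit 8 and 8 with a median of -0.01. The median absolute difference was 0.05 for members and 0.101 for all, and the median standard error 0.130 and 0.209. With the replicate block the median standard error was 0.074 and 0.153. Standard errors given for single genes are from the fit on group alone, so they include the spread between replications. For the 21 brightest, differences lay between -0.10 and 0.08, and their 95% intervals spanned at most -0.44 to 0.36, or 0.738-fold to 1.28-fold. With the replicate block the intervals spanned -0.32 to 0.25, or 0.800-fold to 1.19-fold. Among the other 10 tested members, Rpl13a, Rps27 and Rpl22 (92857_at) had intervals of -0.34 to 0.29, -0.29 to 0.39 and -0.20 to 0.53. The intervals of the remaining, dimmer probe sets were wider, the widest reaching -1.15 in Rps4l and 1.37 in Rps28 (98086_r_at).

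Rpl41 had a log2 difference of 0.06 (SE 0.131, n = 3 arrays per group) and the aldosterone array was higher in all 3 replications, though its difference was -0.05 to 0.17 over the alternatives run. Rpl22 (92857_at), Rps27 (96301_at) and Rps18 (98333_at) also had the aldosterone array higher in 3 of 3, though in Rps18 the first replication's difference was 2.8e-05. That made 4 of 31 members, against 10.5% of all tested probe sets. Rpl7 (97695_s_at) was the single member lower in all 3, against 11.5% of all. These counts are near the background. In 0 of 31 members did all aldosterone arrays lie above all vehicle arrays (1.91% of all tested probe sets), and in 0 of 31 did all lie below (2.27%).

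Of the 5 largest positive differences, 4 belonged to probe sets outside the 21 brightest and 1 to Rpl10a. Rps28 (98086_r_at), a small-subunit protein at the mRNA exit, read 711, 380 and 403 with vehicle and 439, 1233 and 561 after aldosterone (log2 difference 0.46, SE 0.408). The high value was that of aldosterone in replication 2, without which the difference was 0.05; the groups overlapped. Rpl19 (161961_at), of the large subunit, read 820, 432 and 360 with vehicle and 758, 721 and 561 after aldosterone (0.38, SE 0.336; 0.16 to 0.70 with single arrays left out).

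Rpl22 (92857_at), a large-subunit protein with an RNA-binding role in lymphocyte development, read 2997, 3688 and 4201 with vehicle and 3788, 4108 and 4226 after aldosterone (0.16, SE 0.164). Its groups overlapped, since the vehicle array of replication 3 exceeded 2 of the aldosterone arrays. Rpl10a (100711_at) followed at 0.08 (SE 0.117) and Rpl7l1 (98138_at), a relative of Rpl7, at 0.08 (SE 0.263).

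Of the 5 largest negative differences, 3 belonged to probe sets outside the 21 brightest. Rps4l (98148_at), a relative of Rps4x, read 490, 468 and 549 with vehicle and 542, 253 and 367 after aldosterone (-0.38, SE 0.340; -0.63 to -0.15 with single arrays left out). Rps29 (98523_at), a zinc-binding small-subunit protein, read 645, 1513 and 1073 with vehicle and 1061, 798 and 641 after aldosterone (-0.30, SE 0.325; -0.61 to -0.028 with single arrays left out). In both, replication 1 ran the other way from replications 2 and 3.

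Rpl22 (92856_at) read 938, 1439 and 492 with vehicle and 641, 892 and 952 after aldosterone (-0.10, SE 0.361), against the positive difference of the gene's other probe set. Rps19 (94068_at), the gene most often mutated in Diamond-Blackfan anaemia, read 12709, 12293 and 13027 with vehicle and 11275, 10103 and 14645 after aldosterone (-0.10, SE 0.152). Rpl10a (161327_f_at) read 19245, 13866 and 15482 with vehicle and 16803, 12892 and 16207 after aldosterone (-0.08, SE 0.160). None of the groups was separate.

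**Figure D2:**
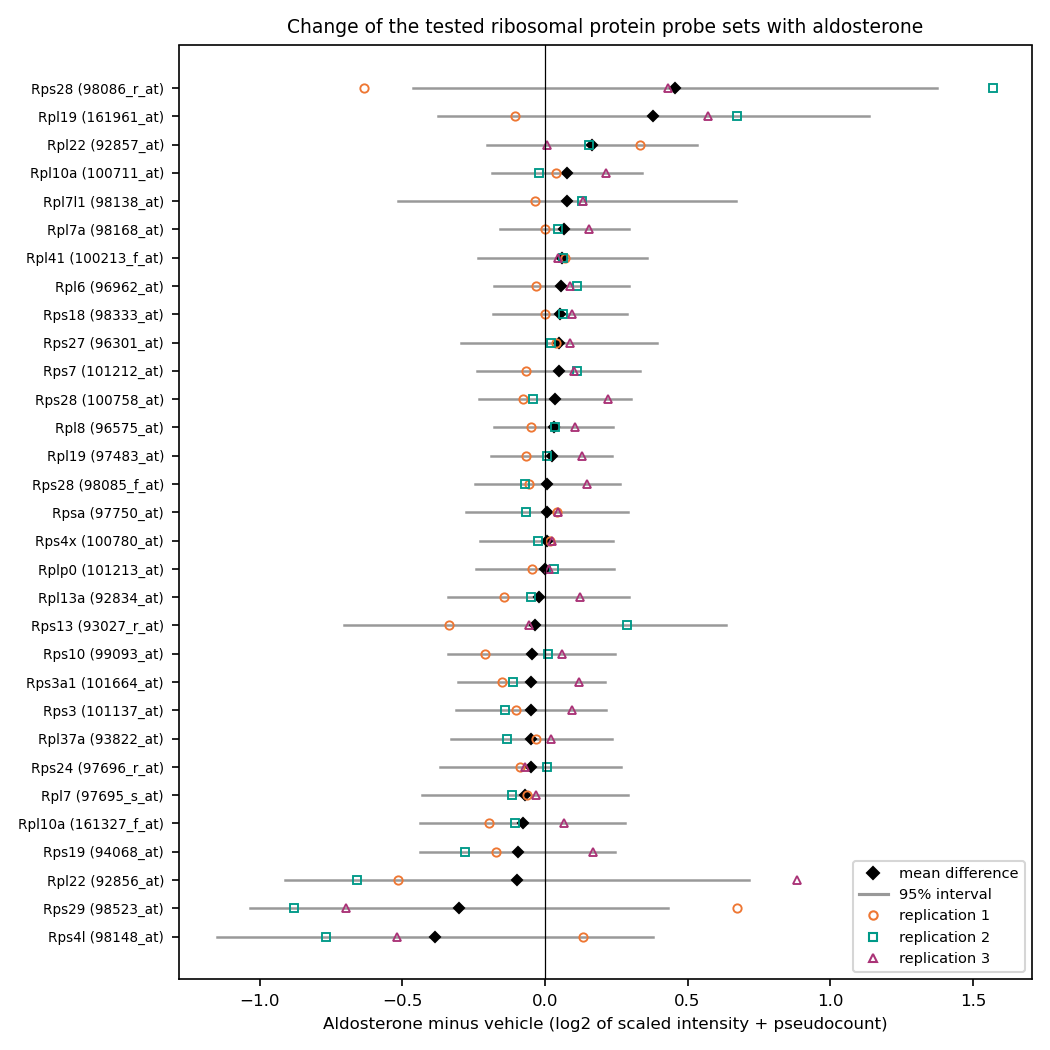
Aldosterone minus vehicle on the log2 scale for the 31 tested probe sets, with the mean difference (diamond), its 95% interval from the fit on group alone (line) and each replication's own difference (open markers). The 95% interval includes 0 for every probe set, and the intervals are widest for the dim ones, such as Rps28 (98086_r_at).

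The sign of the difference changed from one replication to the next. Of the 21 brightest members, the aldosterone array was higher in 5 in replication 1, in 10 in replication 2 and in 19 in replication 3, with median differences of -0.05, -0.02 and 0.10. The 561 other tested probe sets at or above the 95th percentile, without a ribosomal protein symbol, were higher in 35.7%, 48.7% and 64.0%. Their medians were -0.04, -0.005 and 0.05. They share the members' bound but were not matched in brightness. Their median intensity per array was 16128 to 17396, against 48725 to 62921 for the 21 brightest members. All tested probe sets were higher in 49.3%, 51.1% and 47.4%. The aldosterone array of replication 3 is the one that was deposited on another scale, and its part in these counts was not tested. With both arrays of replication 3 left out, 11 members were higher and 20 lower and the median was -0.02. The 18 dim members ran differently, higher in 15, 2 and 10, against 56.3%, 27.1% and 43.0% of all 4969 dim probe sets.

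Some members passed a test between replications, unlike between treatments. In a moderated F test between the 3 replications, limma called 4 of 31 members at an adjusted p under 0.05, against 798 of 7453 probe sets (10.7%). All 4 were among the 21 brightest members (19.0%), against 143 of the 561 others at or above the 95th percentile (25.5%). Neither share stands out from its background. The 4 were Rpl7 (97695_s_at), Rps24 (97696_r_at), Rpl41 (100213_f_at) and Rpl10a (161327_f_at), each highest in replication 1 and lowest in replication 2. The Rpl7 and Rps24 probe sets share a source sequence record, so they are not independent counts. Rpl7, a large-subunit protein, read 94227 and 90160 in replication 1, 70945 and 65421 in replication 2, and 93170 and 91147 in replication 3 (vehicle first), a 1.35-fold range of replication means with an adjusted p = 0.00826. The ranges of the others were 1.33-fold in Rps24 (adjusted p = 0.0161), 1.29-fold in Rpl41 (adjusted p = 0.0177) and 1.34-fold in Rpl10a (adjusted p = 0.0463). With treatment added as a term, Rpl10a (161327_f_at) lost its call, and the gene's brighter probe set (100711_at) was not called in the first place (adjusted p = 0.282).

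The number of calls changed with the scaling and with single arrays, over all probe sets as well as among members. After quantile normalization 2 of 31 members were called (10.2% of all probe sets), and after scaling to the median 0 of 31 (8.91%). Leaving out vehicle replicate 1 left 1 member call (4.45% of all), vehicle replicate 2 left 1 (6.27%), aldosterone replicate 2 left 1 (9.79%) and aldosterone replicate 1 left 2 (5.07%). All 4 called probe sets were among the 7 tested members whose names mark family, shared or relaxed probe selection (suffixes f, s and r). Of the 24 with plain names, 0 were called. This split was chosen after the calls were seen, and the Rpl7 and Rps24 calls share a source sequence record. The same split over all tested probe sets is not given, so no conclusion is drawn about the type of probe set.

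After scaling to the trimmed mean, the brightest members as a group were highest in replication 1. Over the 21, the median deviation from each probe set's own mean was 0.107 and 0.0875 in replication 1 (vehicle, then aldosterone), -0.0444 and -0.0714 in replication 2, and -0.0638 and 0.00175 in replication 3. Their share of the summed intensity of an array was 3.71% and 3.63%, 3.25% and 3.24%, and 3.33% and 3.47% in the same order. Replication 1 gave the highest mean for 24 of 31 tested members (77.4%), against 30.6% of all tested probe sets. It also did so for 18 of the 21 brightest (85.7%), against 27.5% of the 561 others at or above the 95th percentile. On the vehicle arrays alone the count was 22 of 31 (70.97%), against 29.99% of all tested probe sets. On the aldosterone arrays alone it was 17 (54.84%), against 34.51%. For the 21 brightest these counts were 16 (76.19%) and 12 (57.14%), against 34.94% and 21.93% of the 561 others. The 6-array count fell to 14 of 31 (45.2%) after quantile normalization and after median scaling, against 28.0% and 21.9% of all tested probe sets. For the 21 brightest it was then 8 (38.1%) and 9 (42.9%), against 26.0% and 15.0% of the 561 others. The members' share thus depended on the scaling. Under quantile normalization it fell far more than the shares of the comparison sets, which changed little, and under median scaling all of these shares fell.

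**Figure D3:**
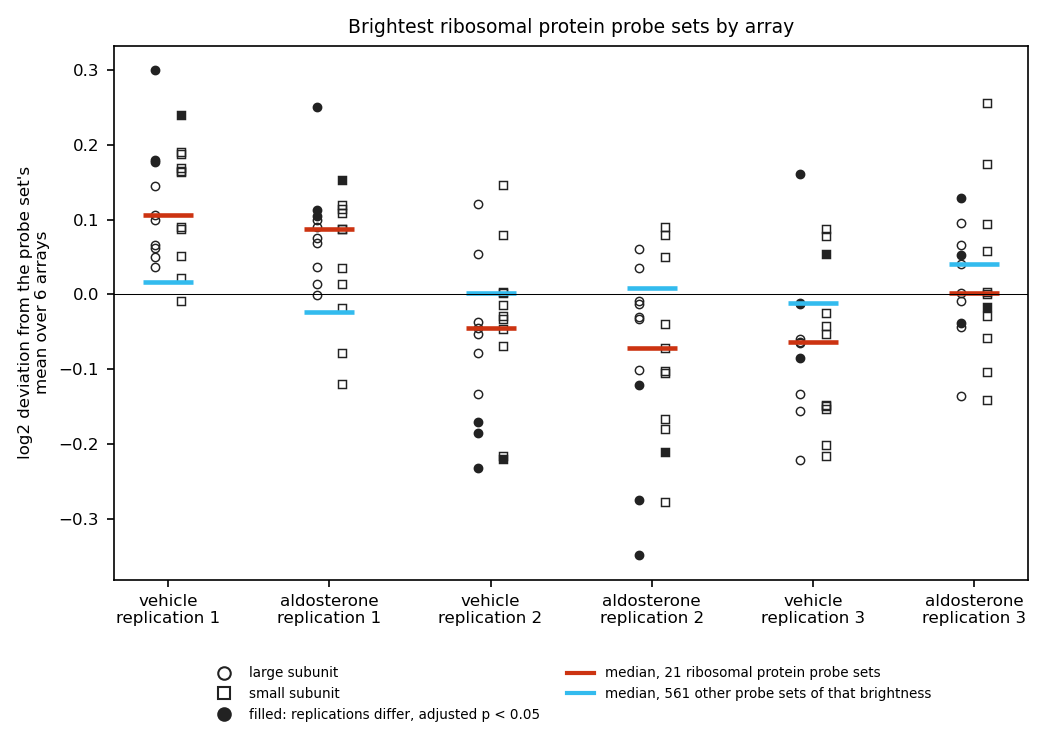
Log2 deviation of the 21 brightest probe sets from their own mean over 6 arrays, by array, with circles for the large and squares for the small subunit and filled symbols for the 4 called between replications. The red median line is at 0.107 and 0.0875 in replication 1 and at or below 0.00175 on the other 4 arrays. The blue line is the median of the 561 other probe sets at or above the 95th percentile. They were not matched in brightness and had a lower median intensity than the members.

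Several genes were read by more than 1 probe set, 10 genes with 24 probe sets in all. In Rpl7, Rps4x and Rps24, 1 probe set was among the brightest members and every other one was too dim to test. In Rpl19 and Rps28 the dimmer probe set was tested but lay outside the 21 brightest. Both Rpl10a probe sets were among the brightest, both of Rpl22 were tested outside them, Rps4l and Rps29 had 1 tested and 1 dim, and both of Rpl38 were dim. Levels of different probe sets are not comparable, and the level read for such a gene depends on the probe set.

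Rpl7 shows the 2 cases side by side. Its bright probe set (97695_s_at) read 65421 to 94227, and the other (97697_at) read 25.5, 222 and 22.2 with vehicle and 190, 38.7 and 41.1 after aldosterone. The array annotation gives the bright Rpl7 probe set and the bright Rps24 probe set (97696_r_at) the same source sequence record under different symbols. Both were lowest on the arrays of replication 2. The other Rps24 probe set (93121_at) read 180 to 497. Which gene the pair measures cannot be told apart here. Rps28 also had a pair from 1 record, 98085_f_at at 80513 to 100327 and 98086_r_at at 380 to 1233.

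Among the paralogue pairs with both genes on single-symbol probe sets, Rps4x (100780_at) read 53833, 48951 and 48725 with vehicle and 54510, 48103 and 49542 after aldosterone, a log2 difference of 0.01 (SE 0.103). Its relative Rps4l had 1 tested probe set, described above, and 1 too dim. Rps27 (96301_at) was tested at 0.05 (SE 0.152), and Rps27l, a p53-responsive relative, was too dim. Rpl39 and Rpl39l, the latter known from testis, were both too dim. Near-identical copies share sequence, so short probes may not separate the members of a pair.

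The rest of the translation machinery was read from lists of named genes, and some probe sets are in more than 1 list. For example, those of Tpt1, Eef1d, Eef1a1, Eef1b2 and Eef2 are in both the elongation factor list and the list of other TOP transcripts. The counts and medians of the lists are therefore not independent. At an adjusted p under 0.05, limma called 0 probe sets in any list, and at an unadjusted p under 0.05 it found 1 of 65 in the mitochondrial ribosomal protein list and 1 of 58 in the biogenesis list, against 0.966% of all tested probe sets. With the replicate block the counts were 2 in each of these lists, 1 of 42 in the initiation factor list and 1 of 19 in the mTOR list, against 3.35%. The mitochondrial ribosomal proteins, which translate the messages of the mitochondrial genome, had 31 tested probe sets higher and 34 lower, with a median difference of -0.0043. Mrps5 read 919, 671 and 818 with vehicle and 560, 423 and 554 after aldosterone (-0.60, SE 0.261, limma's unadjusted p of 0.0472, adjusted p = 0.9995). Its aldosterone arrays were all below the vehicle arrays. Mrps18a (161767_r_at) had a difference of -0.40 (SE 0.210, block p of 0.0106), whereas its other 3 tested probe sets were at 0.06, 0.12 and 0.04.

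Ribosome biogenesis factors had 33 higher and 25 lower of 58, with a median of 0.03. Taf1d (104639_i_at), a subunit of the factor that places RNA polymerase I on the ribosomal DNA, read 1607, 1344 and 1179 with vehicle and 863, 807 and 982 after aldosterone (-0.60, SE 0.209, limma's unadjusted p of 0.0173, adjusted p = 0.9995). It was lower in 3 of 3 replications without overlap, whereas the gene's other tested probe set (104640_f_at) differed by -0.01. Utp20, of the small-subunit processome, had a difference of -0.32 (SE 0.163, block p of 0.0490).

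The translation initiation factor list had 18 higher and 24 lower of 42 (median -0.02). It was taken by symbol and includes the 4E-BP genes Eif4ebp1 and Eif4ebp2, which are also in the mTOR list. Eif5, which promotes GTP hydrolysis at start codon recognition, differed by -0.31 (SE 0.152, block p of 0.0144) and Eif2a by -0.30 (SE 0.167). Elongation factors had 2 higher and 4 lower of 6 (median -0.02). Eef2, the translocase, differed by -0.12 (SE 0.124) and Eef1b2 by 0.21 (SE 0.265).

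The other TOP transcripts and ribosomal proteins outside the symbol rule had 8 higher and 6 lower of 14, with a median of 0.02. Eif3f differed by -0.41 (SE 0.365) and Eif3e by 0.16 (SE 0.143). The mTOR and S6 kinase list had 10 higher and 9 lower of 19, with a median of 0.03. Its smallest unadjusted p was that of Ddit4, an inhibitor of mTOR complex 1 that responds to glucocorticoids. Ddit4 read 4810, 3064 and 2555 with vehicle and 5071, 3977 and 4006 after aldosterone, higher in 3 of 3 replications with overlapping groups (0.36, SE 0.232, limma's unadjusted p of 0.152, and 0.0223 with the replicate block). Pdpk1, which activates Akt and the S6 kinases, differed by 0.22 (SE 0.184) on 160578_at and by -0.07 on its other tested probe set, 102063_at.

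**Figure D4:**
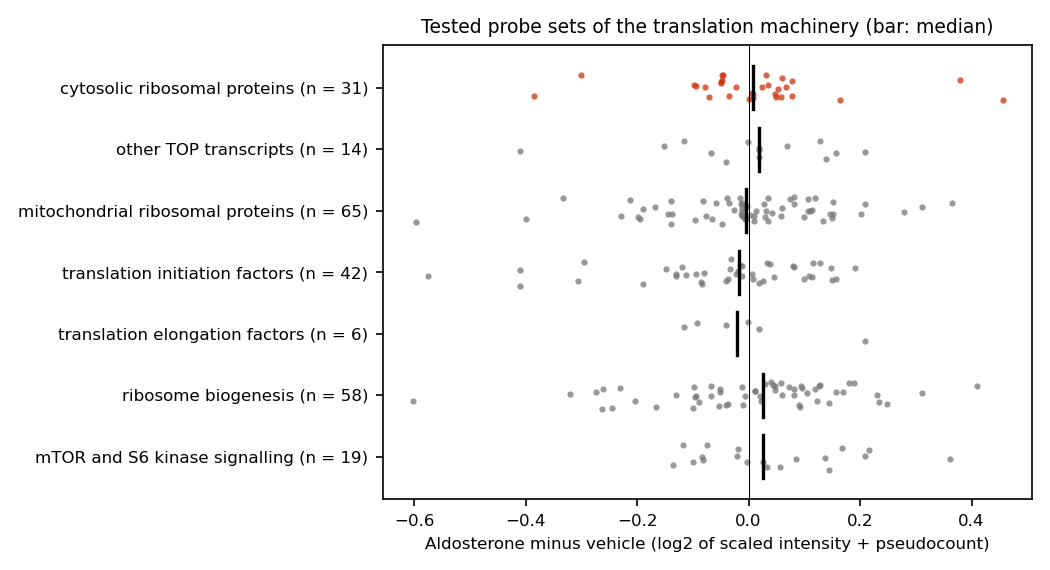
Aldosterone minus vehicle on the log2 scale for each tested probe set of the cytosolic ribosomal proteins (red) and of 6 other translation lists (grey), with a bar at each median. The medians lie between -0.02 and 0.03, and the cytosolic ribosomal proteins outside 4 dim probe sets cluster near 0.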

How the data were processed

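RNA of 6 samples was measured on single-colour oligonucleotide arrays, and the authors deposited 1 linear intensity per probe set and array. The summarisation software was not given in the sources used here. Each array was scaled to the mean of the 2% trimmed means (2090), and log2(intensity + 53.0) was computed, the pseudocount being the 10th percentile. Probe sets at or above the 40th percentile of mean log2 (8.87) were tested, 7453 of 12422.

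Treatments were tested by limma 3.58.1 under R 4.3.3 (lmFit, eBayes with an intensity trend, two-sided) with Benjamini-Hochberg adjustment over all tested probe sets, and replications by its F test. Tables were joined with pandas 2.3.3 in Python 3.11.15. The fit was tested on simulated data. The replication numbers pair the arrays: the labels describe repeats of 1 experiment, and same-numbered deviations correlated at 0.377, 0.387 and 0.471. Symbols came from the array's annotation; all 35 member genes matched RefSeq (GRCm38.p6) by Entrez identifier and 0 symbols changed. Alternatives covered the scaling, pseudocount, filter, trend, block and left-out arrays. The members and lists were chosen with earlier results of these data known.

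Members were named by a rule: the 5 largest differences in each direction, any with an unadjusted p under 0.05, the 3 brightest and 3 dimmest, genes with several probe sets, stalk and scaffold genes, paralogue pairs, and 2 genes per list by smallest p. Other genes were named after their values were seen.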

Additional observations from a re-analysis of the deposited data

How the results depend on the processing

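With aldosterone against vehicle, 0 member probe sets were called under every alternative run, including the replicate block (paired arrays), and the median member difference stayed between -0.05 and 0.06 with single arrays left out and was 0.0074 with the block. The count of members called between replications was 4 and became 2 after quantile normalization, 0 after median scaling, 2 with no filter and 0 with no intensity trend, and 1 to 3 with single arrays left out. It was 4 with each other pseudocount (10.6% and 10.9% of all probe sets) and 3 with treatment as a term (7.82% of all). With replication 3 left out it was 4 of 31 members, against 3.86% of all. That member share was above the background, and the Rpl7 and Rps24 pair was among the 4. With the filter at the 60th percentile it was 5 of 24 tested members, against 18.4% of all. The share called over all probe sets was 10.7% in the main run, 5.02% with no filter and 0.953% with no intensity trend. Replication 1 was highest in 24 of 31 members and in 14 under both quantile normalization and median scaling, which were added after seeing the data. Of 31 members, 24 had the other sign under at least 1 alternative. Among the 10 with the largest differences, leaving out single arrays turned the sign of Rpl7l1 (-0.070 to 0.28), Rpl10a (100711_at, -0.014 to 0.12; 161327_f_at, -0.18 to 0.053), Rpl22 (92856_at, -0.48 to 0.24) and Rps19 (-0.25 to 0.020), and moved Rps28 (98086_r_at) between 0.047 and 0.74. The causes were not tested. Dim probe sets limit what could be detected.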

Other observations

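The 39 probe sets that carry a ribosomal protein symbol beside other symbols, many of them pseudogenes, were left out of the member counts above. They were also left out of the 561 other probe sets at or above the 95th percentile. Of these 39, 35 were bright enough to test and are part of the 7453 tested probe sets. With aldosterone 16 were higher and 19 lower, with a median log2 difference of -0.02. Limma called 0 of them at an adjusted p under 0.05 and 1 at an unadjusted p under 0.05, against 0.966% of all tested probe sets. That probe set was 94240_i_at, whose symbols include Rpl29, a large-subunit protein; it read 208, 273 and 1190 on the vehicle arrays of replications 1 to 3 and 1366, 1877 and 1605 on the aldosterone arrays. The log2 difference was 1.81 (SE 0.512), with an unadjusted limma p of 0.0060 and an adjusted p of 0.9995. The aldosterone arrays were higher in 3 of 3 replications without overlap. It was the 1 probe set of the 35 with all aldosterone arrays above all vehicle arrays, against 1.91% of all tested probe sets. Between replications 2 of the 35 were called, those with Rpl14 and Rpl21 (5.71%, against 10.7% of all), and 20 were highest in replication 1 (57.1%, against 30.6%).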
